A study of Solanum lycopersicum with 4 samples.

Results

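JOINTLESS (J) and MBP24, of the SVP clade of MADS-box genes, and STM3 and FYFL, of the SOC1 clade, were followed in shoot meristems of tomato (Solanum lycopersicum). These 4 genes were chosen by identifier for their clade, with earlier results of these data known but by a rule that uses no measured value, from 34727 genes in the deposited table, and all 4 were found and passed the filter on low values. Messenger RNA had been sequenced from plants mutant for TERMINATING FLOWER (TMF) and from wild-type plants. Each genotype had 2 biological replicates, each made from meristems of several plants pooled together. All meristems were late vegetative ones harvested on day 8 from germination; the allele and the cultivar are not given in the labels. TMF is an ALOG-family gene whose product is found in the nucleus.

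MADS-box genes encode DNA-binding proteins that act as dimers and larger complexes. In Arabidopsis, SVP holds back flowering, AGL24 of the same clade promotes it, and SOC1 collects signals from day length, age and gibberellin and passes them to the floral meristem genes. These factors act in the shoot apex ahead of the FRUITFULL, SEPALLATA and organ identity genes. In tomato, J is required for the abscission zone of the pedicel and keeps the inflorescence from returning to leafy growth. STM3 takes its name from its relative TM3 and has been tied, with J, to inflorescence branching. FYFL is a relative of Arabidopsis FOREVER YOUNG FLOWER, which delays the senescence and shedding of floral organs.

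The 4 libraries held between 17540331 and 28310492 gene-assigned reads. A level is a number of normalised reads, meaning reads out of 10000000 assigned to genes, and is not corrected for gene length, so levels of different genes are not ranked against each other. TMF itself measured 6.1 and 6.27 in tmf libraries, against 1238 and 2224 in wild-type libraries, so the low libraries are those labelled mutant. The shoot meristem genes WUS, CLV3, TKN2, TKN1, FAB, GOB and LS had reads in every library. The Rubisco small subunit genes RBCS1 and RBCS3, which mark leaf tissue, were also read, with a summed level of 4217 and 10987 in tmf libraries and 7126 and 8425 in wild-type ones. In pooled tissue, fewer cells of a type and less RNA per cell cannot be told apart.

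None of the 4 genes passed the test between tmf and wild-type meristems. Of 21437 genes tested, 0.215% were called at a Benjamini-Hochberg adjusted p under 0.05 in either direction (limma), 0.131% as higher and 0.084% as lower in the mutant. The log2 fold changes of the 4 genes ran between 0.15 and 0.94, all above 0, as were those of 11934 of the 21437 genes tested. The median of the 4 was 0.55, against a median of 0.04 over all genes tested. At an unadjusted p under 0.05 limma called 0 of the 4 and 1329 of all genes, and edgeR and DESeq2 on the recovered reads also called 0 of the 4 after adjustment. All 4 were also read in every wild-type library, so their transcripts were present at this stage in both genotypes.

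**Figure D1:**
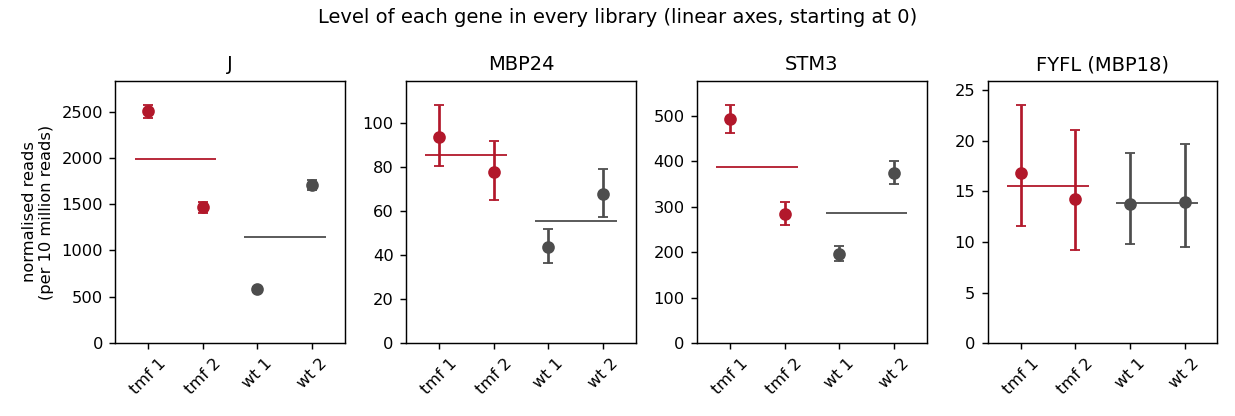
Normalised reads (per 10000000 gene-assigned reads, linear axes from 0) of J, MBP24, STM3 and FYFL in the 2 tmf mutant libraries (red, left) and the 2 wild-type libraries (grey, right). Points are single libraries with exact 95% counting intervals, and lines are genotype means. For J and STM3, wild-type replicate 2 lies between the 2 mutant libraries, while the 4 intervals of FYFL overlap.

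J was read in tmf and wild-type meristems at overlapping levels, and its wild-type replicates stood further apart on the log2 scale than those of the other 3 genes. J (Solyc11g010570.1.1, on chromosome 11 by its identifier and in the reference table) measured 2501 and 1465 in tmf libraries, against 579 and 1708 in wild-type libraries. The genotypes overlapped, since wild-type replicate 2 exceeded mutant replicate 2. The mutant mean was 1983 ± 733 and the wild-type mean 1143 ± 799 (SD, n = 2 each). The log2 fold change was 0.94 ± 0.48 (SE; 95% interval -0.17 to 2.05; limma, adjusted p = 0.87).

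The spread of J within a genotype was larger than counting error. It rested on 1638 reads in wild-type replicate 1 and 3925 in wild-type replicate 2, and replicate 1 was at 0.339 of the level of replicate 2, with a 95% exact counting interval of 0.32 to 0.359. On the log2 scale the gap was 1.56, larger than that of 98.9% of the 17617 tested genes that averaged 10 normalised reads or more, whose median gap between the wild-type libraries was 0.32. Between the mutant libraries the gap of J was 0.77, larger than that of 87% of the same genes. The difference between genotypes depended on the wild-type library used: without replicate 1 the log2 fold change of J was 0.16, and without wild-type replicate 2 it was 1.72 (limma, adjusted p of 1 and 0.5). Leaving out mutant replicate 1 gave 0.56.

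MBP24, the second gene of the SVP clade, was read in all 4 libraries and was the member of that clade whose genotypes did not overlap. MBP24 (Solyc01g105800.2.1, on chromosome 1 by its identifier) measured 93.5 and 77.5 in tmf libraries, against 43.4 and 67.5 in wild-type libraries. The tmf libraries did not overlap with the wild-type ones and were the higher, as they were for 20.7% of all genes tested. The 95% counting intervals of mutant replicate 2 (65.1 to 91.7) and wild-type replicate 2 (57.3 to 79) did overlap. Means were 85.5 ± 11.3 in tmf and 55.5 ± 17 in wild-type libraries (SD, n = 2 each), and the log2 fold change was 0.64 ± 0.35 (SE; 95% interval -0.16 to 1.45; limma, adjusted p = 0.91). It was 0.33 without wild-type replicate 1. These values rest on 123 to 184 reads per library. The counting interval of the ratio between the mutant libraries, 0.961 to 1.52, includes equality, and that between the wild-type libraries, 0.504 to 0.821, does not.

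STM3, of the SOC1 clade, resembled J in which libraries were high and low. STM3 (Solyc01g092950.2.1, on chromosome 1 by its identifier) measured 493 and 284 in tmf libraries, against 196 and 375 in wild-type libraries. As for J, mutant replicate 1 was highest, wild-type replicate 2 exceeded mutant replicate 2, and wild-type replicate 1 was lowest. Means were 388 ± 148 in tmf and 286 ± 126 in wild-type libraries (SD, n = 2 each). The log2 fold change was 0.46 ± 0.37 (SE; 95% interval -0.4 to 1.32; limma, adjusted p = 0.99). Without wild-type replicate 1 it was close to 0 and changed sign (-0.0045), without mutant replicate 1 it was 0.06, and without mutant replicate 2 and wild-type replicate 2 it was 0.86 and 0.93. On the log2 scale the gap was 0.79 between the tmf libraries and 0.93 between the wild-type ones, larger than in 87.5% and 92.5% of the same 17617 genes. Close relatives of STM3 may share its reads, since how multiply matching reads were counted is not given in the sources used here.

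FYFL, the second gene of the SOC1 clade, spanned the smallest log2 range of the 4 over the libraries. FYFL (Solyc03g006830.2.1, also named MBP18, on chromosome 3 by its identifier and in the reference table) measured 16.8 and 14.3 in tmf libraries, against 13.8 and 13.9 in wild-type libraries. Means were 15.5 ± 1.78 in tmf and 13.9 ± 0.107 in wild-type libraries (SD, n = 2 each), and the log2 fold change was 0.15 ± 0.43 (SE; 95% interval -0.84 to 1.14; limma, adjusted p = 1). The mutant libraries lay above the wild-type libraries, again against 20.7% of all genes, but by less than counting error: the reads numbered 33 and 25 in tmf libraries and 39 and 32 in wild-type ones, and the ratio of mutant to wild type over summed reads, 1.13, had a 95% exact counting interval of 0.782 to 1.62. Leaving out either mutant library changed its log2 fold change to 0.04 or 0.26. Those of J2, TM5 and EJ2, given further on, lie outside the limma interval of FYFL, whereas a log2 change of 1 lies inside it.

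**Figure D2:**
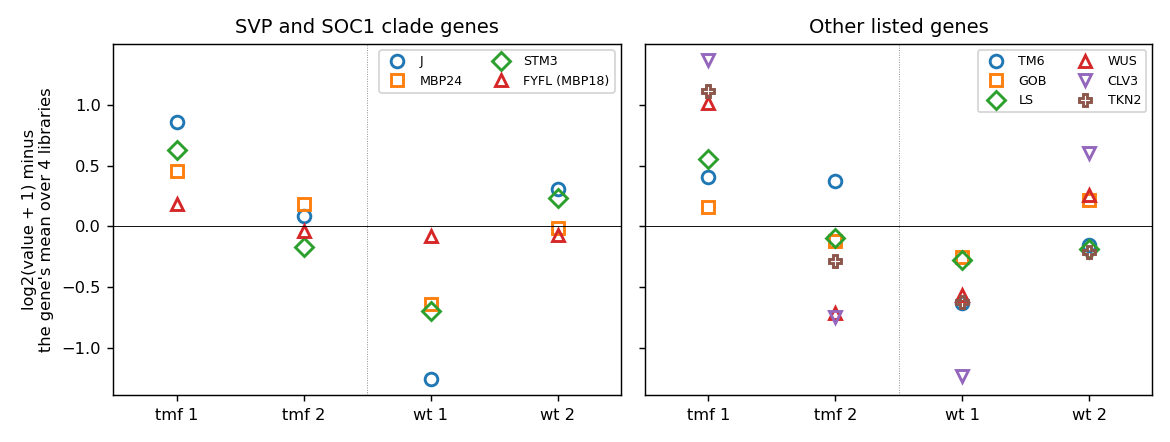
Log2(value + 1) in each library after subtraction of the gene's mean over the 4 libraries. Shown are the 4 SVP and SOC1 clade genes (left) and 6 other listed genes (right: TM6, GOB, LS, WUS, CLV3 and TKN2). The shoot meristem genes TKN1 and FAB are not drawn and did not follow the order of J. TKN1 was lowest in mutant replicate 1 and FAB was lowest in mutant replicate 2. tmf mutant libraries stand left of the wild type. J falls lowest in wild-type replicate 1, and CLV3 is likewise lowest there, whereas the FYFL values stay near 0.

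The 4 genes were highest in mutant replicate 1 and lowest in wild-type replicate 1. Both ranks were beyond counting error for J and STM3, and only the lowest rank was for MBP24. Mutant replicate 1 was the highest and wild-type replicate 1 the lowest of the 4 libraries in all 4 members, against 14.2% of all genes tested. For FYFL the wild-type libraries differed by 0.015 on the log2 scale, and the counting interval of their ratio was 0.604 to 1.63. For MBP24 the counting interval of the ratio between the mutant libraries, 0.961 to 1.52, also included equality. The interval between its wild-type libraries, 0.504 to 0.821, did not. The counting interval of MBP24 in wild-type replicate 1, 36.1 to 51.8, lay below those of the other libraries. The order of the middle libraries differed, with wild-type replicate 2 above mutant replicate 2 for J and STM3, and below it for MBP24 and FYFL. Within a library, the ratio of J to STM3 spanned less than J did: log2 of J over STM3 was 2.34 and 2.37 in tmf libraries and 1.56 and 2.19 in wild-type ones. Its mean differed by 0.48 between genotypes (exact permutation test, two-sided, p = 0.333, the smallest that 2 libraries against 2 allow, and 0.667 after adjustment over 5 such ratios). Log2 of J over MBP24 was 4.74 and 4.24 in tmf libraries and 3.74 and 4.66 in wild-type ones, so the genotypes overlapped.

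Patterns most like those of the members were looked for among 25 other listed genes that averaged 10 normalised reads or more, by the distance between centred log2 profiles over the 4 libraries. With 4 libraries of 2 genotypes this is a description only. The nearest to J was STM3, at a distance of 0.66, and 1.53% of 17616 genes lay as close or closer; the next 2 are identifiers without a name in the reference table. From the side of STM3, however, J was the gene of rank 7 among the 25, with 12.1% of genes as close or closer. The nearest to MBP24 was TM6, a B-class gene of petals and stamens, at 0.24, with 1.25% of genes as close or closer. TM6 measured 205 and 201 in tmf libraries, against 100 and 139 in wild-type libraries (limma, adjusted p = 0.63). The third nearest to MBP24 was STM3, at 0.47, with 9.31% of genes as close or closer to MBP24. The nearest to STM3 was MBP24, with 4.41% as close or closer to STM3. For FYFL the nearest were the boundary genes GOB, at 0.34, and LS, at 0.44, but 22.6% and 38.1% of the 17616 genes were as close or closer.

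Levels of meristem genes also varied between the libraries in which the members were high and low. The summed level of the 7 shoot meristem and boundary genes named above was 6330 and 3876 in tmf libraries and 3698 and 4269 in wild-type ones. CLV3, which encodes the signal peptide that limits the stem cell domain, measured 114 and 25.7 in tmf libraries, against 18 and 66.6 in wild-type libraries. WUS, the stem cell organiser gene, stood at 157 and 46.7 in tmf libraries and 51.9 and 92.7 in wild-type ones. Markers of developing flowers (TAG1, TAGL1, TAP3 and TPI) summed to 61 and 29.6 in tmf libraries and 1.41 and 7.4 in wild-type ones, and TAP3 and TPI had no read in wild-type replicate 1. The part of tissue makeup or stage in the values of J and STM3 was not tested.

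Taken against the shoot meristem sum of the same library, J was alike in 3 of the 4 libraries. It came to 39.5% and 37.8% of that sum in tmf libraries and 15.6% and 40.0% in wild-type ones. Only wild-type replicate 1 was low, and the genotypes overlapped (exact permutation test, two-sided, p = 1). STM3 came to 7.78% and 7.33% in tmf libraries and 5.31% and 8.79% in wild-type ones (exact permutation test, two-sided, p = 1). MBP24 stood at 1.48% and 2.00% in tmf libraries and 1.17% and 1.58% in wild-type ones. For FYFL the shares were 0.265% and 0.368% in tmf libraries and 0.372% and 0.326% in wild-type ones, so that its log2 fold change on this scale turned to -0.15. The low level of J in wild-type replicate 1 was present on both scales. The sum was 3698 and 4269 in the wild-type libraries, so dividing by it could change that gap only slightly. This scaling was chosen after the data were seen.

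**Figure D3:**
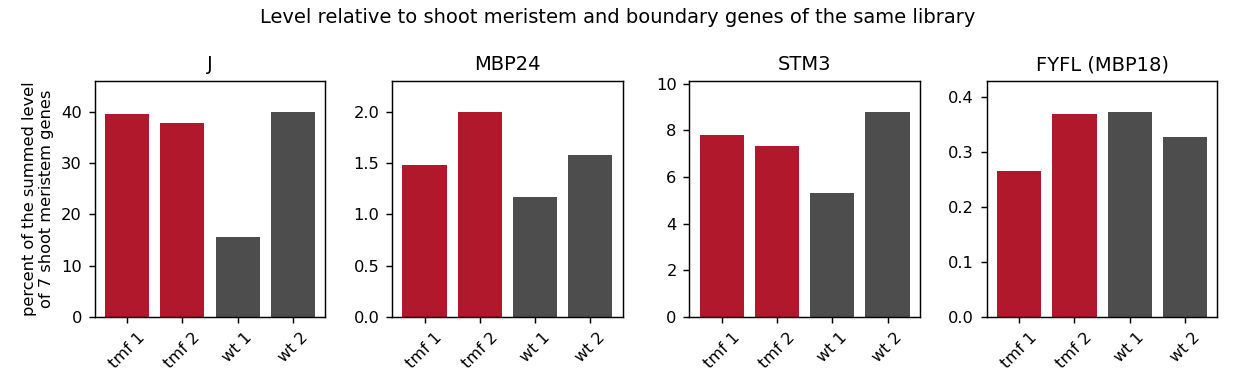
Level of each gene as a percent of the summed level of 7 shoot meristem and boundary genes in the same library (linear axes from 0), for tmf mutant (red, left) and wild-type libraries (grey, right). Bars are single libraries; J stands at 15.6% in wild-type replicate 1 and between 37.8% and 40.0% in the other 3.

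Other MADS-box genes, of the classes that act after this step, are set beside the members. In the SEPALLATA class, 3 of 5 genes (EJ2, J2 and TM5) rose in the tmf libraries (limma, threshold of 0.05 on the adjusted p) and 2 did not pass, with a median log2 fold change of 5.37; edgeR and DESeq2 on the recovered reads called 4 each. These genes are needed for floral organ and meristem identity. Without wild-type replicate 1 or wild-type replicate 2, 0 of the 5 passed (limma), with log2 fold changes of EJ2, J2 and TM5 at 5.15 or above in those fits. In the FRUITFULL and APETALA1 clade, 0 of 4 tested genes passed (limma), 2 had an unadjusted p under 0.05, and edgeR and DESeq2 called 1 each. Without mutant replicate 2, limma called 2 of these 4 genes. Their median log2 fold change was 1.6, 1 of them has no name that the reference table places, and a further gene, MBP10, was under the filter. EJ2 measured 596 and 253 in tmf libraries, against 1.41 and 2.18 in wild-type libraries (limma, adjusted p = 0.0012). FUL2, a FRUITFULL-type gene, measured 361 and 159.6 in tmf libraries, against 25.4 and 37 in wild-type libraries (limma, adjusted p = 0.055). FUL1, which STM3 is reported to activate in tomato, measured 17.3 and 14.3 in tmf libraries, against 24.7 and 33.1 in wild-type libraries (limma, adjusted p = 0.86). The intervals of the 4 members end at 2.05 or below, under the lower ends for EJ2 (6.02), J2 (3.71), TM5 (4.03) and TM29 (2.9), and overlap those of FUL1, MBP20 and RIN. The interval of FUL2 starts at 1.94, inside that of J and above those of the other 3.

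**Figure D4:**
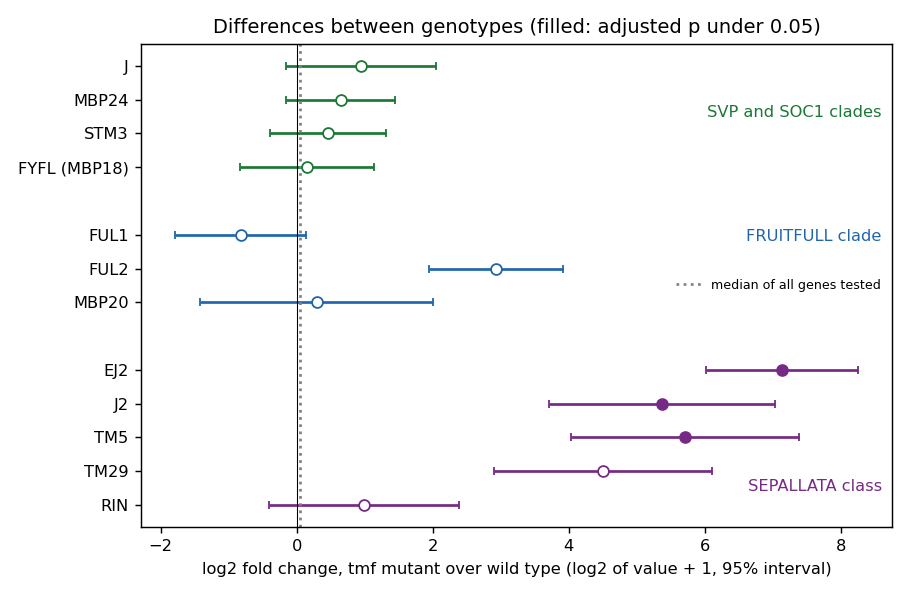
Log2 fold change of tmf mutant over wild type on log2(value + 1), with 95% intervals from limma, for the SVP and SOC1 clade genes (green), the named and tested FRUITFULL clade genes (blue) and the SEPALLATA-class genes (purple). Filled points passed at an adjusted p under 0.05; the 4 green intervals include 0 and the filled points lie at 5.37 or above.

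The contrast with these genes was also taken within each library. Log2 of EJ2 over J was -2.07 and -2.53 in tmf libraries and -8.68 and -9.62 in wild-type ones, a shift of 6.85 between genotypes. EJ2 had 4 and 5 reads in the wild-type libraries, so the size of its shifts is imprecise. For EJ2 over STM3 the shift was 7.33, for FUL2 over J it was 2.02 and for FUL2 over STM3 it was 2.51. Each of these 4 ratios was higher in every tmf library than in any wild-type library, and each had an exact permutation p = 0.333 (two-sided), the smallest possible with 2 libraries against 2, so no difference from the members can pass at this replication by that test. The floral MADS-box lists were chosen with results on this mutant known and give no independent support.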

How the data were processed

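RNA sequencing of pooled meristems gave 1 value per gene and library. The deposited signal values add up to 10000000 in each library, which means that the authors had put the read counts on 1 total before deposit. Bowtie 0.12.5 and edgeR are named in the submitters' processing notes; genome build, annotation and read counting: not given in the sources used here. Within each library 100% of nonzero values divided by the smallest gave whole numbers (tolerance 1e-06), which are the reads.

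Log2(value + 1) was fitted in limma 3.58.1 (R 4.3.3), with its trend option and genotype as the term, for genes with a mean of at least 1, with p-values adjusted over all genes. Alternatives were edgeR 4.0.16 and DESeq2 1.42.0 on recovered reads, TMM rescaling, a pseudocount of 0.1, no filter, no trend, a replicate block and leaving out each library. Scripts were tested on simulated data. The smallest exact permutation p for 2 against 2 libraries is 0.333. Intervals cover counting error only where called counting intervals.

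Members and lists were chosen with earlier results of these data known. Named genes were the 4 members, TMF, list genes past the threshold, the genes nearest in pattern, and genes used as markers or to set the members against. J and FYFL were placed by the reference table (assembly SLM_r2.1) on the stated chromosome and within 5 percentage points of relative order; MBP24, STM3 and TMF have no entry there, so these names rest on published nomenclature. Of 41 list identifiers, 30 were placed; others besides the members and TMF are not named. CLV3, TPI, J2, EJ2 (as MADS1), FAB (as CLV1) and GOB (as goblet) were matched by symbol, synonym or nomenclature. No sequences were at hand, so none are shown.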

Additional observations from a re-analysis of the deposited data

How the results depend on the processing

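None of the 4 genes passed under any of the 12 alternatives run for each, with adjusted p from 0.2 to 1 for J and from 0.63 to 1 for the others, so no call depended on a setting. J ranged from 0.16 to 1.72 and MBP24 from 0.33 to 0.95 on the log2 scale, each positive throughout. STM3 changed sign without wild-type replicate 1 (-0.0045) and reached 0.93 without wild-type replicate 2. FYFL changed sign when scaled by the shoot meristem sum (-0.15), a setting chosen after the data were seen, and otherwise lay between 0.04 and 0.26. The count of 46 called genes was 54 with edgeR on the recovered reads, 214 with DESeq2, 368 with the replicate block and 219 with a crossed block (mutant 1 with wild type 2, added after seeing that same-numbered deviations correlated at -0.109), and from 6 to 61 when 1 library was left out, a fit that takes the spread of a single remaining library from the other genotype; the cause was not tested. Nothing in the labels ties same-numbered libraries together. With the replicate block J kept its log2 fold change of 0.94 (adjusted p = 0.2). FYFL rests on 25 to 39 reads per library, and the 95% counting interval of its ratio between genotypes includes equality.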

Other observations

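The identifier next to STM3 in the table, Solyc01g093960.2.1, had a pattern unlike that of STM3. It has no name in the table or the reference and was picked out after its values were seen. Whether it corresponds to TM3, the SOC1-clade relative after which STM3 is named, is not given in the sources used here, and its values are not counted with that clade. It measured 474 and 130 in tmf libraries, against 13.1 and 22.2 in wild-type libraries. Its genotypes did not overlap and the mutant was the higher, as for 20.7% of all genes tested. Its log2 fold change, with SE, was 3.79 ± 0.58 (adjusted p = 0.06 in limma), and edgeR's quasi-likelihood test on recovered reads gave an adjusted p of 0.041. DESeq2 on the same reads gave 1.1e-11 and limma with the replicate block 4.8e-14, 2 settings that also called many more genes over the whole table. Without mutant replicate 2 the adjusted p in limma was 0.028, without mutant replicate 1 it was 0.12, and without wild-type replicate 1 or 2 it was 0.82 or 0.38. Log2 of its level over that of STM3 was -0.05 and -1.13 in tmf libraries and -3.91 and -4.08 in wild-type ones, a shift of 3.4 (exact permutation test, two-sided, p = 0.333, the smallest possible). Whether reads are shared between STM3 and this locus was not tested. Of the 24 identifiers within 3 places of a member in the table, 21 were tested and 0 were called (limma). An unadjusted p under 0.05 in limma was found for 2 of the 21, against 1329 of all 21437 genes tested. On the recovered reads, edgeR and DESeq2 called 1 each, against 54 and 214 over all genes.

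Of 3 further identifiers listed as possible relatives of these clades, the one listed for TM3 matched no gene analysed here. The other 2 are not annotated in the sources used here; both were tested, neither passed in limma, edgeR or DESeq2, and their log2 fold changes were 0.36 and 0.13.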
